A study of Mus musculus with 6 samples.

Results

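The set examined was the axon guidance ligands and receptors, defined by gene symbol as the protein-coding genes of the semaphorin, plexin, neuropilin, ephrin, Eph, Slit, Robo, netrin, Unc5 and Dcc families. It held 68 of the 52636 genes of the table, of which 22027 were protein-coding. There were 34 genes of ligand families (20 semaphorins, 8 ephrins, 3 Slits and 3 netrins) and 34 of receptor families (14 Eph receptors, 9 plexins, 4 Robo receptors, 4 Unc5 receptors, 2 neuropilins and Dcc). The 3 antisense genes named after Plxna4 were left out by the biotype rule.

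The libraries came from the vestibular epithelium, the sensory sheet of the balance organs, of male 129S1/SvImJ mice that were 2 to 4 months old at the start of exposure. The 3 IDPN animals drank water with 30 mM 3,3'-iminodipropionitrile (IDPN), a nitrile that damages hair cells (HCs), the sensory cells of hearing and balance, for 8 weeks, and the 3 Control animals drank plain water. Both groups share the inbred strain, and the labels name no other allele or agent. Each library was 1 animal with its 2 utricles and 6 cristae pooled. The libraries are numbered 1 to 3 within each group as names only.

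Axon guidance molecules are secreted or membrane-bound cues and the receptors that read them. Class 3 semaphorins bind neuropilins, which signal through A-type plexins, netrins act through Dcc, neogenin and Unc5 receptors, Slits act through Robo receptors, and ephrins bind Eph receptors on the neighbouring cell. In the embryo these cues steer growing axons, including those of the vestibular ganglion that innervate HCs, and in adult tissue many of them are also used by blood vessels, supporting cells and synapses.

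Each library summed to between 40474847 and 43566332 estimated counts, and the size factors lay between 0.825 and 1.21. In a principal component analysis the library IDPN 2 stood apart on the first component (61.3% of the variance), at 21.7 against -0.13 and 4.26 for the other IDPN libraries and between -10.3 and -7.38 for the Controls. The labels name 1 batch for all libraries. All Control titles carry animal codes that begin alike and no IDPN title begins so, and a difference tied to these codes cannot be told apart from IDPN exposure. The labelled tissue was checked on fixed marker lists, and no marker of any list was at 0 in all libraries.

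Markers of several cell types moved with the groups. The summed normalized count of 11 HC markers was 27226 to 30985 in Control and 19177 to 19468 in IDPN, with 7 of them called lower. The 4 not called were Myo7a, Myo6, Espn and Cdh23, with log2 fold changes of 0.01, -0.21, -0.18 and -0.70. For 8 neuron markers the sum was 5436 to 5646 in Control and 3482 to 3677 in IDPN, with 4 called lower. Nefl gave the largest part of the neuron sum. Prph went the other way, higher in every IDPN library at low counts (log2 fold change 1.51, not called). The 10 supporting cell markers summed to 454121 to 664333 in Control and 340063 to 409947 in IDPN, with 2 called lower, and these 3 sums did not overlap between groups. The sum of the 6 melanocyte markers did not overlap either, in the other direction (6366 to 14355 in Control, 14606 to 22129 in IDPN). None of the 6 was called, and taken singly only Tyrp1 did not overlap between groups. Sums for Schwann cell, macrophage, stroma, endothelium, dark and transitional cell and erythroid markers overlapped, with 1 gene called higher for Schwann cells (Sox10), 1 called lower each for stroma (Pou3f4) and endothelium (Kdr), and 4 of 5 erythroid markers called higher. These values stand beside every result below, and their part in those results was not tested. In bulk tissue, fewer cells of a type and less RNA per cell cannot be told apart.

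Of the 68 guidance genes, 6 were called lower in IDPN and none was called higher. The 6 were the ligands Sema3a, Ntn1 and Slit2 and the receptors Nrp1, Plxna4 and Epha3, so that a ligand, its binding receptor and a signalling receptor of the semaphorin system were among them. A gene was called when DESeq2 gave an adjusted p (Padj, Benjamini-Hochberg over all genes) under 0.05 and a fold change over 1.5. DESeq2 gave a Padj to 59 members, and the 6 lower ones were 10.2% of these, beside 3.42% of all 17650 genes tested that were called lower. For the higher direction the background of calls was 2.32%. At an unadjusted p under 0.05 in DESeq2, 5 members had a positive fold change and 10 a negative one. Over all genes, of which 17650 were tested, these counts were 1439 and 1675. The positive share of the members was thus near that of all genes, and the negative share above it. By Padj alone 7 members passed, the seventh being Nrp2, with 6.33% of all genes doing so in either direction. The edgeR quasi-likelihood test called 2 members lower, Sema3a and Ntn1, and none higher, with backgrounds of 2.19% and 1.02%.

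Over all members the estimates were centred as those of all genes. The median log2 fold change was 0.02 over the 59 members tested (31 positive, 28 negative) and 0.02 over all 17650 genes. Groups did not overlap for 6 members that were lower in every IDPN library, which were the 6 called ones, and for 5 that were higher (Nrp2, Efna1, Efna3, Efnb3 and Sema6c). These are 10.2% and 8.47% of the members tested, against 11.4% lower and 11.1% higher among all genes tested, so that the count of members without overlap was near the background.

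**Figure D1:**
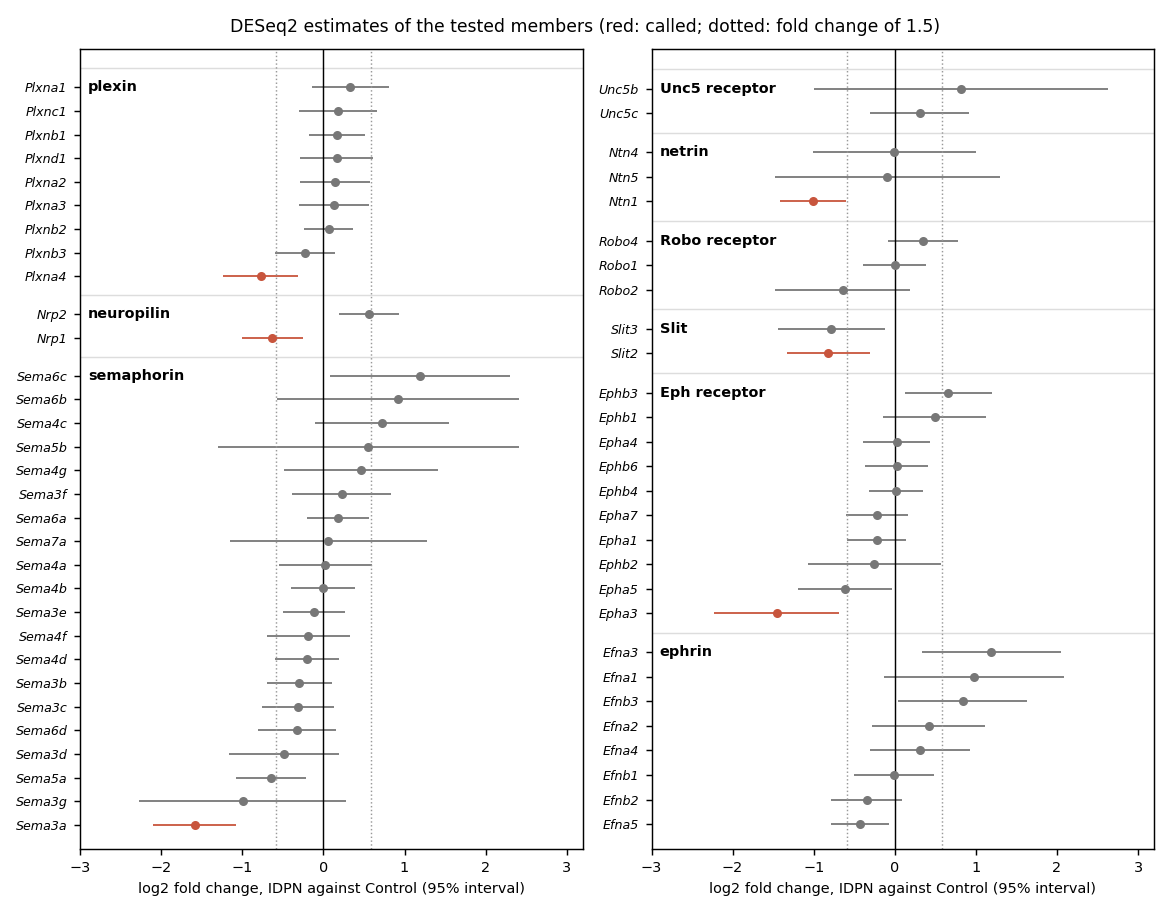
DESeq2 log2 fold change of IDPN against Control (x axis, with 95% intervals) for each of the 59 members tested, grouped by family, with the 6 called members in red and dotted lines at a fold change of 1.5. The called members lie between -0.63 and -1.59, and most intervals of the others include 0.

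Promoter windows show what lies at a RefSeq start of these genes (build GRCm38.p6, 250 bases before to 50 after that start). They are printed for the called members Epha3, Slit2, Nrp1 and Sema3a and for Nrp2, the neuropilin that went the other way. These were 5 of the 7 genes looked up, and Plxna4 and Ntn1 were the others. Capitals mark matches, on either strand, to a GC box (GGGCGG), an E-box (CANNTG) or a TATA box (TATAAA). The windows are chr5:13396534-13396833 (plus strand) for Sema3a, chr8:128358823-128359122 (plus) for Nrp1, chr1:62703067-62703366 (plus) for Nrp2, chr5:47982905-47983204 (plus) for Slit2 and chr16:63864126-63864425 (minus) for Epha3. Those of Sema3a and Nrp1 lie wholly inside the span of the GENCODE gene. The GENCODE start of Sema3a, at 13125414, is far upstream of its window, and that of Nrp1, at 128358604, is close to its window.
Sema3a: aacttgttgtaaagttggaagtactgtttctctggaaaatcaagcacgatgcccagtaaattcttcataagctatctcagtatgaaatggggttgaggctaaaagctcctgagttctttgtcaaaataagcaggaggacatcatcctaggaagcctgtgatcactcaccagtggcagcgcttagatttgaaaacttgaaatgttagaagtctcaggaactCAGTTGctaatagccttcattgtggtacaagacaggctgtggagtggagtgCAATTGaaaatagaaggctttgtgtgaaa
Nrp1: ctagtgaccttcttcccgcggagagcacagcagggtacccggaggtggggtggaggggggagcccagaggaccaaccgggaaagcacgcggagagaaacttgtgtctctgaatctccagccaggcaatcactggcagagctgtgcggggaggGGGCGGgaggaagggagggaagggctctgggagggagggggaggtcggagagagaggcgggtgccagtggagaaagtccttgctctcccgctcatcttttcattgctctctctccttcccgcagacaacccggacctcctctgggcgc
Nrp2: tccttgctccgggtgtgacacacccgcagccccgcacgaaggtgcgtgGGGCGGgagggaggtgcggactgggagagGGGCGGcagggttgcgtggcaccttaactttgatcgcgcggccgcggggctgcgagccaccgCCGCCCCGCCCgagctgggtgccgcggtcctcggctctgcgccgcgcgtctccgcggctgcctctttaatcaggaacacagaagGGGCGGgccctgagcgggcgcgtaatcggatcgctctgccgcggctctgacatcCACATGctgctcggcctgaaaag
Slit2: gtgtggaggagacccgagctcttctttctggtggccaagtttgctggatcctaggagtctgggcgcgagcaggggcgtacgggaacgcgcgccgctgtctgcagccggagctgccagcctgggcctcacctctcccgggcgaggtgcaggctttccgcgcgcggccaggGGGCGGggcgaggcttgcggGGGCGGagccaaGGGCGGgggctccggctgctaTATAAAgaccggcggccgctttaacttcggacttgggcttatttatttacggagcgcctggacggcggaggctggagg
Epha3: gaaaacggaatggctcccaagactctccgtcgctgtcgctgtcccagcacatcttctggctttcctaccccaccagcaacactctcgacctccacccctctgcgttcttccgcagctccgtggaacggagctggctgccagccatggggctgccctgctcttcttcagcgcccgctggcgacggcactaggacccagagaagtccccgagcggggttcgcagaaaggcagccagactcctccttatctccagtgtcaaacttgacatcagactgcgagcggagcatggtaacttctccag

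The windows differ in base composition, and that of Sema3a lies far from the GENCODE start of its gene. That of Sema3a had a GC content of 41.3% and 2 CpG dinucleotides, while those of Epha3, Nrp1, Slit2 and Nrp2 had 60.7%, 64.0%, 68.0% and 70.7%, with 18, 14, 30 and 37 CpGs, against a median GC content of 52.7% over 32851 promoters of the same length. Slit2 held 3 GC boxes, Nrp2 held 5 (a pair of them overlapping by 1 base), Nrp1 held 1, and Sema3a and Epha3 held 0, where 35.7% of all promoters held at least 1. Sema3a held 2 E-boxes and Nrp2 held 1, a motif present in 72.3% of promoters, and the TATA box stood in Slit2 alone of the 5 (13.6% of promoters). The called members with a window (Epha3, Nrp1, Sema3a and Slit2) thus shared no motif of the 3 across all of them. No window was found for Ntn1 and Plxna4.

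Sema3a, a secreted class 3 semaphorin that repels axons, showed the largest fall of the members tested. Sema3a (ENSMUSG00000028883.17, GRCm38 chr5:13125414-13602565) was measured at 252, 259.7 and 348 normalized counts in the Control libraries and 82.8, 110.4 and 94.3 in IDPN. Every IDPN library was below every Control library by a wide gap. The mean fell from 287 ± 53.2 to 95.8 ± 13.9 (SD, n = 3 each), a log2 fold change of -1.59 (SE 0.26, DESeq2 Padj 1.82e-07, edgeR adjusted p 0.0062). Sema3a was called in all 14 other settings tried, the only member for which this held. Set against the summed estimated counts of the other class 3 semaphorins in the same library, a ratio that needs no scaling between libraries, Sema3a was 0.0311, 0.0407 and 0.0623 in Control and 0.0146, 0.0183 and 0.0191 in IDPN. Sema3b gave most of that sum in every library, so the ratio is mainly to Sema3b. The ratios here and below were chosen after the values were seen and carry no test.

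The other class 3 semaphorins did not pass the test. Of the 7 genes of the class, 6 had negative estimates (median -0.31), and the exception was Sema3f at 0.23. Sema3b, a secreted semaphorin and the highest of the semaphorins by level per kilobase of exon, had 6718, 4999 and 4115 normalized counts in Control and 4376, 4968 and 3558 in IDPN. Its groups overlapped (log2 fold change -0.29, SE 0.21, Padj 0.512). Sema3e, a ligand of Plxnd1, was at 771 to 878 in Control and 583 to 846 in IDPN (-0.12, Padj 0.853). Sema3c, Sema3d and Sema3g had estimates of -0.31, -0.49 and -0.99 with Padj between 0.475 and 0.543.

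The neuropilins, the ligand-binding co-receptors for class 3 semaphorins and for VEGF, moved in opposite directions. Nrp1 (ENSMUSG00000025810.9, chr8:128358604-128503363), the main co-receptor for Sema3a, gave 2122, 1779.8 and 1413 normalized counts across Control and 1012, 1252 and 1168 in IDPN. The groups did not overlap, and the Control libraries were the more spread. The mean was 1772 ± 355 in Control and 1144 ± 122 in IDPN (log2 fold change -0.63, SE 0.19, DESeq2 Padj 0.022, edgeR adjusted p 0.0716). The DESeq2 call was lost on leaving out Control 1 (-0.48, Padj 0.1996), Control 2 (-0.63, 0.118), IDPN 1 (-0.54, 0.158) or IDPN 3 (-0.65, 0.0949).

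Nrp2 (chr1:62703285-62818695), which preferentially binds Sema3f, had 974, 922 and 1166 normalized counts in Control and 1802, 1318 and 1398 in IDPN, so that every IDPN library was the higher. Its log2 fold change was 0.56 (SE 0.19, DESeq2 Padj 0.0468, edgeR adjusted p 0.0968), past the threshold on Padj and just short of a fold change of 1.5. It was called without Control 3 (0.67, Padj 0.0104) and without IDPN 2 (0.65, Padj 0.0351), and missed the Padj threshold without Control 1 (0.52, Padj 0.208), Control 2 (0.49, 0.268), IDPN 1 (0.42, 0.300) or IDPN 3 (0.61, 0.102). By level per kilobase of exon, Nrp1 stood at 181 ± 36.3 and Nrp2 at 86.2 ± 10.9 in Control, whereas in IDPN they stood at 117 ± 12.4 and 127 ± 21.9 and did not differ beyond their spread. The ratio of Nrp1 to Nrp2 estimated counts within a library was 2.18, 1.93 and 1.21 in Control and 0.562, 0.950 and 0.836 in IDPN, without overlap.

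The A-type plexins transmit the class 3 semaphorin signal. Plxna4 (ENSMUSG00000029765.12, chr6:32144268-32588192), which pairs with Nrp1 to read Sema3a, had 395, 469.8 and 554 normalized counts in Control and 335, 215 and 281 in IDPN. The groups did not overlap, but the nearest libraries, Control 1 and IDPN 1, lay close together. The mean was 473 ± 79.5 in Control and 277 ± 60.2 in IDPN (log2 fold change -0.77, SE 0.23, DESeq2 Padj 0.0218, edgeR adjusted p 0.084). The call was lost without Control 2 (-0.78, Padj 0.111), Control 3 (-0.64, 0.0984), IDPN 2 (-0.62, 0.135) or IDPN 3 (-0.78, 0.0985). Exons of Plxna4 overlap an antisense gene, and these libraries do not keep the strand. The same holds for Plxna1 and for Efna3, an ephrin described further on, and an exon of Nrp1 overlaps a microRNA gene on the same strand. Further members overlap genes on the opposite strand, among them Ntn5 (with the protein-coding gene Sec1), Unc5c, Sema4c, Plxnb1, Efna4, Epha1, Ephb1 and Ephb4.

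The other plexins were not called. Plxna1, Plxna2 and Plxna3, the remaining A-type plexins, had estimates of 0.33, 0.15 and 0.13, so that 3 of the 4 A-type genes were positive and Plxna4 alone was negative. Set against the sum of these 3 within each library, which includes the overlap at Plxna1, Plxna4 was 0.478, 0.630 and 0.557 in Control and 0.346, 0.222 and 0.273 in IDPN. Plxnb2, a receptor for class 4 semaphorins and the highest plexin by level per kilobase (471 ± 51.9 in Control, 494 ± 21.6 in IDPN), had a log2 fold change of 0.07 with a 95% interval from -0.23 to 0.37. Plxnb1, Plxnb3, Plxnc1 and Plxnd1 lay between -0.22 and 0.18. The plexin median was 0.15, with 7 estimates positive and 2 negative.

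**Figure D2:**
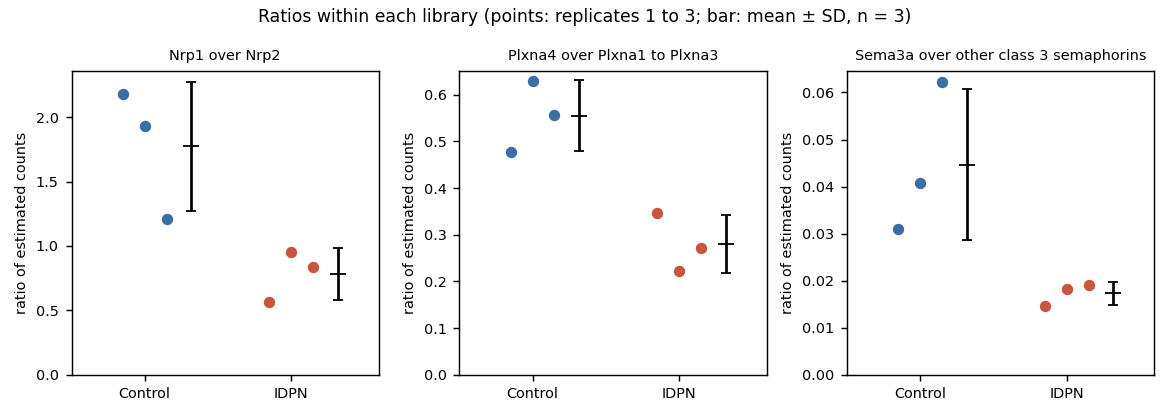
Ratios of estimated counts within each library (y axis, no unit) for Nrp1 over Nrp2, Plxna4 over Plxna1 to Plxna3, and Sema3a over the other class 3 semaphorins, in Control (blue) and IDPN (red), with the mean and SD of 3 libraries. In all 3 panels each IDPN library lies below each Control library.

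Among the transmembrane and membrane-anchored semaphorins none of 13 was called. Sema5a, a transmembrane semaphorin of class 5, had 1361, 955 and 1321 normalized counts in Control and 987, 611 and 725 in IDPN. Only IDPN 1 reached the Control range, just above Control 2 (-0.65, SE 0.22, Padj 0.0544), and the gene was called without Control 2 (-0.80, Padj 0.0352) and without IDPN 1 (-0.85, Padj 0.0077) but not in the other leave-one-out tests, where the smallest estimate was -0.50 (without IDPN 2, Padj 0.255). Sema6c, a class 6 semaphorin, was at 6.06, 43.9 and 32.03 in Control and 80.3, 46.2 and 61.6 in IDPN, without overlap but at counts too low for a firm estimate (1.19, SE 0.57, Padj 0.241, and 0.73 without Control 1). The other 3 class 6 genes (Sema6a, Sema6b and Sema6d), Sema5b and Sema7a had estimates between -0.33 and 0.92, with Padj of 0.550 or more. The class 4 median was 0.01 over 6 genes (Sema4a, Sema4b, Sema4c, Sema4d, Sema4f and Sema4g), and Sema4b, at 352 to 405 in Control and 339 to 435 in IDPN, had an estimate of -0.01. Over the 20 semaphorins the median was -0.06.

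Netrin-1 was lower in IDPN. Ntn1 (ENSMUSG00000020902.12, chr11:68209364-68400823), a secreted laminin-related cue that attracts or repels axons according to the receptor, had 1345, 1759 and 1778 normalized counts in Control and 905, 613 and 909 in IDPN. The groups were well apart. The mean fell from 1628 ± 245 to 809 ± 169 (log2 fold change -1.01, SE 0.21, DESeq2 Padj 6.78e-05, edgeR adjusted p 0.0198). The call held without any 1 of the libraries and was lost under total-count scaling (-0.75, Padj 0.104) and in a test against a fold change of 1.5. Ntn1 was by far the highest netrin, at 259 ± 39.01 normalized counts per kilobase in Control, whereas Ntn4 and Ntn5 were at 10.4 and 7.44, and their estimates were -0.01 (Padj 0.996) and -0.09 (Padj 0.972).

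The netrin receptors of the rule were low or near the limit of counting. Dcc, the classical attractive receptor, had 1 count in Control 2 and 0 in the other libraries, where a count of 0 allows up to 3. Unc5a was at 0 in all libraries but Control 3, and Unc5d and Unc5b, further repulsive receptors, were at no more than 20.6 normalized counts in any library. Unc5c, the highest of its family at 5.08 normalized counts per kilobase in Control, had 81.3, 98.1 and 112 normalized counts in Control and 97.7, 113 and 150.3 in IDPN (0.31, SE 0.31, Padj 0.710). Neo1 (neogenin), a netrin receptor outside the rule, stood well above these at 83.6 normalized counts per kilobase in Control and 82.4 in IDPN, with an estimate of -0.02 (Padj 0.975). The ratio of Ntn1 to Unc5c estimated counts was 16.6, 17.9 and 15.9 in Control and 9.26, 5.41 and 6.05 in IDPN.

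Slit2 was the third ligand called lower in IDPN. Slit2 (ENSMUSG00000031558.15, chr5:47983138-48307733), a secreted repellent read by Robo receptors, had 441, 402 and 682 normalized counts in Control and 333, 215 and 316 in IDPN. The groups did not overlap, and Control 3 was the highest. The mean was 509 ± 152 in Control and 288 ± 63.8 in IDPN (log2 fold change -0.82, SE 0.26, DESeq2 Padj 0.0305, edgeR adjusted p 0.116). The call was lost without Control 1 (-0.92, Padj 0.0597), Control 3 (-0.55, 0.181), IDPN 2 (-0.65, 0.183) or IDPN 3 (-0.89, 0.0873). Slit3, its close relative, was at 136, 159 and 254 in Control and 137, 71.3 and 112 in IDPN, with an estimate of similar size that did not pass (-0.78, SE 0.34, Padj 0.172). Slit1 had 1 count in 1 library.

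Robo receptors were not called. Robo1, a receptor for Slits on neurons and other cells, had 427, 444 and 581 normalized counts in Control and 493, 475 and 487 in IDPN (0.00, 95% interval -0.39 to 0.39). Robo4, the endothelial member, was the highest of the family by level per kilobase (73.04 ± 15.3 in Control, 93.00 ± 10.2 in IDPN) and had an estimate of 0.35 (Padj 0.443). Robo2 had -0.64 (Padj 0.477) at a mean below 100 counts, and Robo3 was at under 10 counts in every library. The ratio of Slit2 to Robo1 estimated counts within a library was 1.03, 0.904 and 1.17 in Control and 0.674, 0.452 and 0.649 in IDPN.

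Epha3 was the single Eph receptor to be called. Epha3 (ENSMUSG00000052504.6, chr16:63543534-63864175), a receptor tyrosine kinase for A-type ephrins, had 114, 144 and 129.9 normalized counts in Control and 28.97, 36.1 and 76.5 in IDPN. All IDPN libraries were lower, and IDPN 3 lay between the other IDPN libraries and the Controls. The mean was 129 ± 15.1 in Control and 47.2 ± 25.6 in IDPN (log2 fold change -1.46, SE 0.39, DESeq2 Padj 0.00654, edgeR adjusted p 0.0768). The call was lost without Control 2 (-1.38, Padj 0.0927), IDPN 1 (-1.19, 0.0785) or IDPN 2 (-1.30, 0.0600). Epha5, its closest counterpart in direction, was at 202, 198 and 125 in Control and 133, 98.4 and 110.1 in IDPN (-0.62, Padj 0.250). Of the 10 Eph receptors tested 5 estimates were positive and 5 negative, with a median of -0.10.

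The Eph receptors of higher level were not called. Ephb4, a receptor for ephrin-B2 and the highest by level per kilobase (299 ± 20.8 in Control, 303 ± 41.2 in IDPN), had an estimate of 0.02 with a 95% interval from -0.32 to 0.35. Epha4 and Ephb6 had 0.02 each, and Epha1 and Epha7 had -0.23 and -0.22. Ephb3, a receptor for B-type ephrins, was at 246, 344 and 373 in Control and 342, 701 and 479 in IDPN (0.66, Padj 0.153) and was called without IDPN 1 (0.88, Padj 0.0380), while without IDPN 2, its highest library, the estimate was 0.35 (Padj 0.641). Ephb1, another of this class, was at 247, 286 and 697.5 in Control and 661, 557 and 513 in IDPN (0.49, Padj 0.475) and was called when Control 3, its highest library, was left out. Ephb2 had -0.25 (Padj 0.850). Epha8 and Epha10 had 0 counts in every library, which allows up to 3 in each, and Epha6 had under 10.

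Ephrins, the membrane-bound ligands of Eph receptors, had a median of 0.36 over 8 genes, which fell to 0.13 without IDPN 2, and none was called. Efna1, an ephrin-A anchored by a lipid, had 1922, 1569.7 and 1893 normalized counts in Control and 2182, 6481 and 1941 in IDPN. The groups did not overlap, but the estimate of 0.98 (SE 0.57, Padj 0.390) rested on IDPN 2, without which it was 0.20. Epha2, an ephrin-A1 receptor, was high in the same library alone, with 53.4, 41.6 and 73.8 normalized counts in Control and 48.8, 604 and 54.1 in IDPN. DESeq2 gave it no p because of that value, edgeR gave an adjusted p of 0.25, and without IDPN 2 the estimate was -0.13 (Padj 0.957). IDPN 2 was also the highest library for Efna3, which had 29.1, 56.6 and 57.8 in Control and 77.8, 177 and 74.7 in IDPN (1.19, SE 0.44, Padj 0.0829). Without IDPN 2 the estimate for Efna3 was 0.67 (Padj 0.585).

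The remaining ephrins showed no call. Efnb3, a transmembrane B-type ephrin, had 44.9, 35.8 and 39.1 normalized counts in Control and 76.96, 87.4 and 49.5 in IDPN, without overlap (0.84, SE 0.40, Padj 0.254). Efna5, a ligand of Epha3, was at 1342 to 1660 in Control and 992 to 1343 in IDPN (-0.43, Padj 0.162). Efnb1 and Efnb2 had -0.01 (Padj 0.995) and -0.35 (Padj 0.465), and Efna2 and Efna4 had 0.42 and 0.31 (Padj 0.626 and 0.707).

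**Figure D3:**
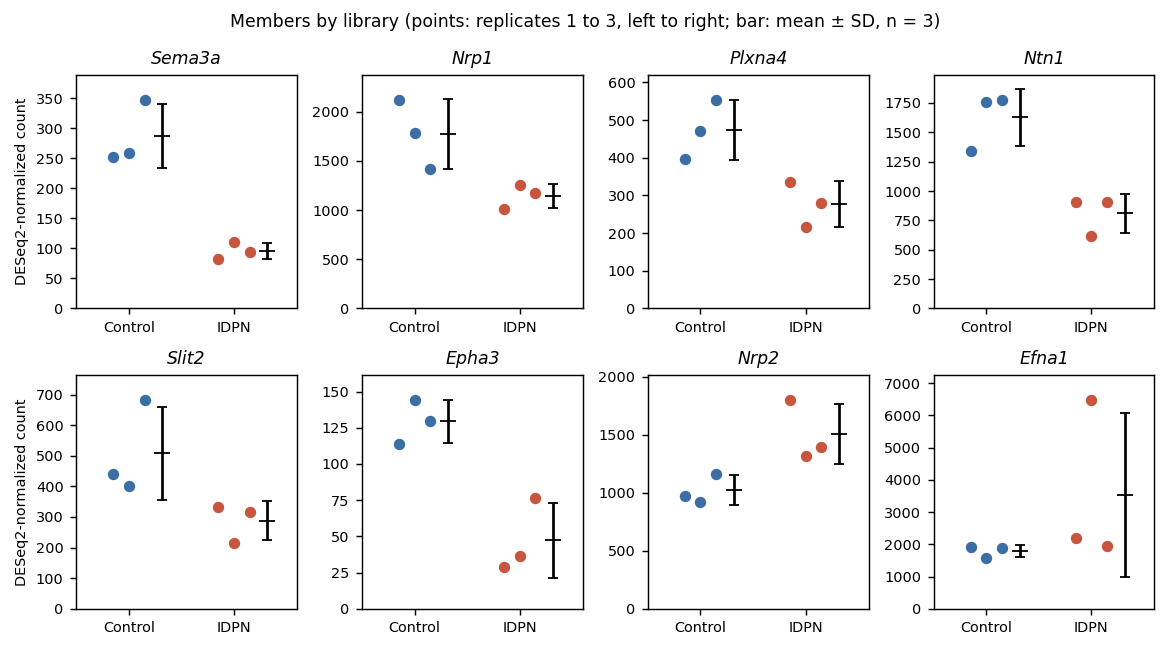
DESeq2-normalized counts (y axis, from 0) of the 6 called members and of Nrp2 and Efna1 in each library, with replicates 1 to 3 from left to right in Control (blue) and IDPN (red) and the mean and SD of 3 libraries beside them. The IDPN points lie below the Control points for the 6 called members and above them for Nrp2, while for Efna1 only IDPN 2, at 6481, stands far from the rest.

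A member that was not called was not thereby shown to be unchanged. For 12 of the 59 members tested the 95% interval lay within a fold change of 1.5 in either direction, and for 31 within a fold change of 2, with Plxnb2, Robo1 and Ephb4 among the 12. Of the 68 members, 54 had at least 10 counts in every library, 7 had under 10 in every library, and 42 of those tested had a mean normalized count of at least 100. The 9 members without a Padj were Dcc, Epha6, Epha8, Epha10, Robo3, Slit1, Unc5a and Unc5d, for low counts, and Epha2.

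**Figure D4:**
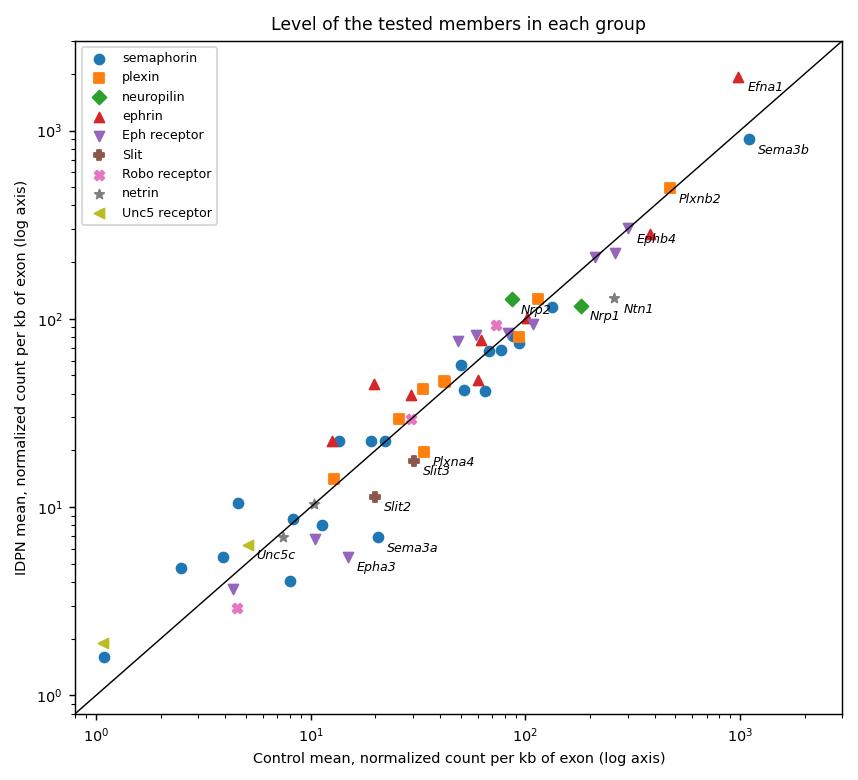
Mean level of each of the 59 members tested in Control (x axis) and IDPN (y axis), in normalized counts per kilobase of exon on log axes, with the line of equality. Efna1 and Sema3b are the highest, Sema3a, Epha3, Slit2, Ntn1, Plxna4 and Nrp1 lie below the line, and the points for Plxnb2 and Ephb4 lie on it.

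Other genes of the guidance pathways were taken from lists of co-receptors, related cues, myelin inhibitors and cytoplasmic effectors. Of these 97 genes 90 were tested, 10 were called lower and 0 higher by DESeq2, and edgeR called 8 lower and 0 higher. At an unadjusted p under 0.05 in DESeq2, 4 had a positive fold change and 17 a negative one. The 10 called lower were 11.1% of the genes tested, and the backgrounds of all these counts are those given above. The lists were chosen with earlier results of these data known, so this share carries no test. The median was -0.02.

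Among related cues and receptors 4 of 18 were called lower. Slitrk3, a synaptic adhesion protein with Slit-like repeats, had 152.8, 95.8 and 91.6 normalized counts in Control and 3.31, 17.1 and 7.47 in IDPN (log2 fold change -3.64, Padj 4.43e-10). It was called in the test against a fold change of 1.5 as well. Slitrk6, a relative needed for inner ear innervation, was at 4348, 3712 and 3905 in Control and 2692, 2278 and 2528 in IDPN (-0.67, Padj 0.000612). Flrt3, a transmembrane protein that binds Unc5 receptors, and Lrrc4, a netrin-G ligand, had -0.65 (Padj 0.0104) and -0.94 (Padj 0.0139, edgeR adjusted p 0.0795).

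Of 13 immunoglobulin co-receptors tested 2 were called lower. Chl1, an adhesion molecule that associates with Nrp1, was at 1418, 1237 and 1495 in Control and 838, 797 and 613 in IDPN (-0.88, Padj 0.000118). Kdr, the VEGF receptor for which Nrp1 is a co-receptor, was at 854, 1199 and 1230 in Control and 599, 345 and 548 in IDPN (-1.14, Padj 9.96e-05), and was the 1 endothelium marker of 8 to be called. Cntn1, a contactin, was lower in every IDPN library with a log2 fold change of -0.51 (Padj 0.00452), short of the fold threshold.

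The myelin inhibitors and the effectors inside the cell gave 1 of 5 and 3 of 54 called. Rtn4 (Nogo), which encodes an inhibitor of axon growth, had -0.62 (Padj 0.00893, edgeR adjusted p 0.0543). Pak3, a kinase downstream of Rac, had -0.68 (Padj 0.000186), and Ablim3, an actin-binding gene, had -0.68 (Padj 0.00268). The collapsin response mediators Dpysl2, Dpysl3, Dpysl4, Dpysl5 and Crmp1, which act below Sema3a receptors, had estimates of 0.03, 0.33, 0.61, 0.05 and 0.32, and none was called.

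How far the 6 calls held differed between genes. Of 14 other settings Sema3a was called in 14, Ntn1 in 12, Epha3 in 8, and Slit2, Plxna4 and Nrp1 in 7 each. The same 6 calls came from TMM factors in DESeq2, the low-count filter, independent filtering off, Cook's filter off and protein-coding genes only. Slit2, Plxna4 and Nrp1 were each called in 2 of the 6 leave-one-out settings. They were not called by edgeR, under total-count scaling or against a fold change of 1.5. All 6 stayed negative in every setting. Total-count scaling moved the median gene by 0.25 on the log2 scale and left Sema3a as the 1 member called lower (-1.37, background 1.28%) while Efna1 became the 1 called higher (1.15, Padj 0.0176, background 3.64%). Under it the other 5 stood at -1.21 (Epha3), -0.75 (Ntn1), -0.59 (Slit2), -0.52 (Plxna4) and -0.36 (Nrp1). Tested against a fold change of 1.5 rather than 1, Sema3a was the 1 member called lower, beside 0.582% of all genes.

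**Figure D5:**
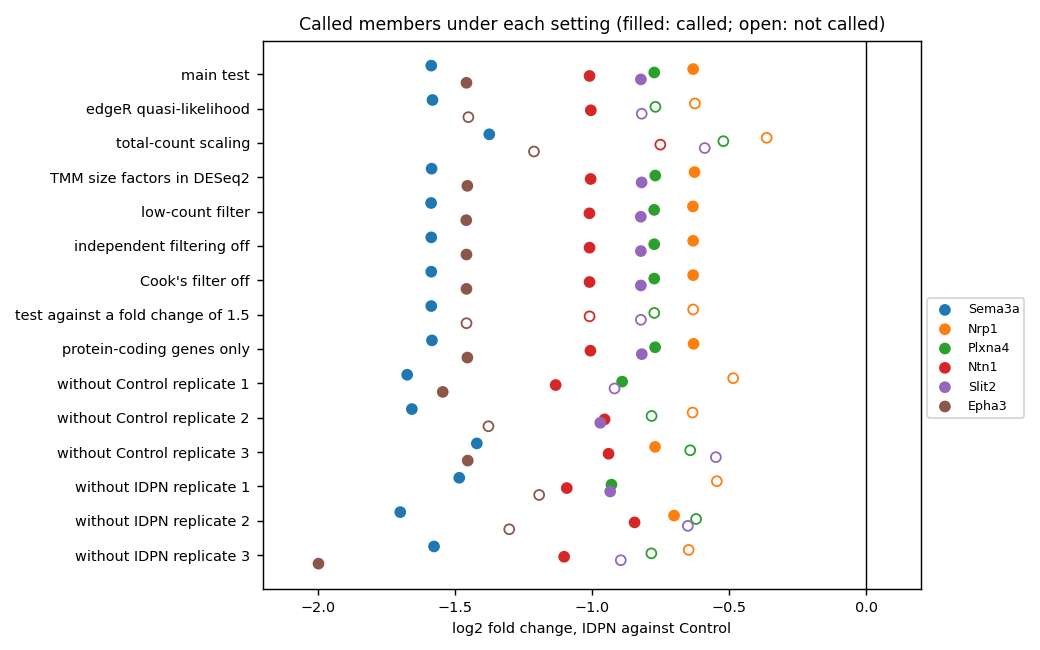
Log2 fold change (x axis) of the 6 called members in the main test and in each of 14 other settings (y axis), with filled points for a call and open points for none. All points lie left of 0, and Sema3a is filled in every row.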

How the data were processed

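Bulk RNA-seq was analysed in 6 libraries, 3 Control and 3 IDPN, each of 1 animal. They were made by a SMART-seq2 protocol from 6 to 11 ng of total RNA, with 8 and 12 amplification cycles, no molecular identifiers and no strand information, and were sequenced in pairs of 76 bases. The authors mapped reads to GRCm38 with STAR 2.5.3a and quantified genes with RSEM (given as 2.3.0) on GENCODE M15. The deposited values are RSEM estimated counts without normalization, and all are whole numbers. RSEM divides reads that match several genes, so related genes share an uncertain split. Reads are not independent molecules, so counting error understates the true error.

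Here, all 52636 genes were tested with DESeq2 1.42.0 (R 4.3.3, Wald test, median-of-ratios, no covariate), following the study's methods, and called at Padj under 0.05 and a fold change over 1.5. The alternative test was edgeR 4.0.16 (quasi-likelihood, TMM, filterByExpr). Estimated counts were divided by size factors, and levels between genes by union exon length in kilobases from a GENCODE annotation of the same build, which matched all 68 members. The procedure was tested on simulated data, with changes larger than those of the called members. That test does not cover changes of the size seen in these members. Members, lists and tests were chosen with earlier results of these data known. The rule named the members called, those whose groups did not overlap, the highest of each family and those under 10 counts in all libraries, and the called genes of the other lists, of which 1 is counted but not reported here. Further members, Neo1, Cntn1 and the collapsin response mediators were named after their values were seen. Alternatives were total-count scaling, TMM factors in DESeq2, a low-count filter (10 counts in 3 libraries), independent filtering off, Cook's filter off, a test against a fold change of 1.5, protein-coding genes only, and each library left out. Promoter sequences came from RefSeq (GRCm38.p6).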

Additional observations from a re-analysis of the deposited data

How the results depend on the processing

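No paired analysis was possible because the labels give no replicate numbers, and the numbers used here are names only. Against 6 members called lower, edgeR gave 2, total-count scaling 1, the test against a fold change of 1.5 gave 1, and leaving out 1 library gave 3 to 5. The lowest counts, 3, came without IDPN 2 (Nrp1, Ntn1, Sema3a) and without IDPN 3 (Epha3, Ntn1, Sema3a). Against 0 called higher, total-count scaling gave 1 (Efna1) and leaving out 1 library gave 0 to 2 (Nrp2 and Ephb1 without Control 3, Ephb3 without IDPN 1, Nrp2 without IDPN 2, Efna1 without IDPN 3). For the other guidance genes, 10 lower became 1 under total-count scaling and 1 in the test against a fold change of 1.5 (Slitrk3 in both), and 7 to 9 with 1 library left out. The count of 0 higher became 1 under total-count scaling (Cdon), and 0 to 4 with 1 library left out, all 4 without Control 3 (Rtn4rl2, Mical3, Arhgap39 and Rgmb). The median log2 fold change of the members, 0.02, became 0.24 under total-count scaling and -0.066 to 0.064 with 1 library left out. Epha2 reversed from 2.07 to -0.13 without IDPN 2, and with 1 library left out its estimate ran from -0.13 to 2.55. The cause of these changes was not tested. The share of all genes called with 1 library left out is not given here, so those counts have no background beside them. TMM factors in DESeq2, the low-count filter, independent filtering off, Cook's filter off and protein-coding genes only left the counts of calls at 6 and 10 lower and 0 higher. Depth limited the test for 8 of 68 members, which had counts too low for a Padj.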
